A study of Mus musculus with 6 samples.

Results

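The genes described here are 10 genes of fatty acid uptake by endothelial cells (ECs) and its control: Gpihbp1, Lpl, Cd36, Slc27a4, Fabp4, Fabp5, Pparg, Meox2, Tcf15 and Foxo1. They were taken by gene symbol, and all 10 were found among the 24346 gene symbols of the deposited tables. RNA-sequencing of tumor ECs was available as 3 samples from WT and 3 from Apelin-KO C57BL/6 mice, used at 8 to 10 weeks of age and bearing subcutaneous tumors of MC38, a mouse colon carcinoma line. Tumors were taken at day 19, and cells positive for CD31 and negative for CD45 were sorted. The labels name saline for all 6 samples. The methods name no cell type to which the knockout was limited, so it is taken here as a knockout of the whole host and not of ECs alone, while the inoculated MC38 cells were the same in both groups. The comparison asks whether tumor ECs express fatty acid uptake genes differently where Apelin, the ligand of the receptor APJ, is absent.

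Capillary ECs pass fatty acids from the blood to the tissue around them. Lipoprotein lipase, held on the luminal surface by GPIHBP1, frees fatty acids from triglyceride-rich lipoproteins, CD36 and fatty acid transport proteins take them up, and fatty acid binding proteins carry them through the cytoplasm. The nuclear receptor PPARγ and the MEOX2/TCF15 pair of transcription factors promote expression of these genes in ECs, and FOXO1, a forkhead factor, keeps ECs quiescent when it is in the nucleus. Apelin-APJ signalling is known from other work to restrain FOXO1 and Fabp4 in ECs.

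The targeted gene, Apln, averaged 457 FPKM in WT ECs against 17.3 FPKM in Apelin-KO ECs (log2 fold change -4.73) and was the 1 gene of 10964 tested with an adjusted p under 0.05 (limma with Benjamini-Hochberg adjustment, adjusted p = 0.00747). FPKM are read numbers divided by transcript length and library size, so levels can be set side by side between genes. Fold changes are Apelin-KO minus WT on the scale log2(FPKM + 1), which understates the difference of genes with low FPKM. The test took in every gene that averaged 1 FPKM or more, which held for 9 of the 10 genes, Lpl being the exception. The depth, estimated from the steps that single reads make in low FPKM, was 8910000 to 10170000 reads a sample. The ECs of the 6 samples expressed the endothelial markers Pecam1 (553 to 846 FPKM) and Cdh5 (155 to 294 FPKM) at high levels, and Esam was the most abundant of the endothelial markers with a mean of 1023 FPKM. Aplnr, the gene of the Apelin receptor APJ, was 334, 366 and 387 FPKM in WT ECs and 568, 336 and 325 FPKM in Apelin-KO ECs.

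In tumor ECs of both genotypes, Gpihbp1 and Fabp4 stood far above the other 8 genes, and no gene of the 10 passed the test for a difference between genotypes. Fold changes of the 9 genes tested were all above 0, from 0.05 for Tcf15 to 0.78 for Pparg, with a median of 0.34 beside 0.01 over all genes tested, of which 52.5% were above 0. The median was 0.24 for 15 endothelial markers and -1.25 for 12 macrophage markers (below). The adjusted p of the 9 genes lay between 0.501 and 0.975 (limma), where 0.00912% of all genes tested passed. At an unadjusted p under 0.05, Pparg, Meox2 and Foxo1 passed, 3 of 9 genes, beside 9.42% of all genes. Every Apelin-KO sample lay above every WT sample for Pparg and Foxo1, 2 of 9 genes, where 14.4% of all genes did not overlap in either direction and 7.77% did not overlap with Apelin-KO higher. The exact permutation test of 3 samples against 3 cannot reach a p below 0.1. The count of 2 genes became 4 without WT 2, 5 without Apelin-KO 1 and 5 without Apelin-KO 2, where the share over all genes was 20.1%, 27.7% and 27.4%.

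**Figure D1:**
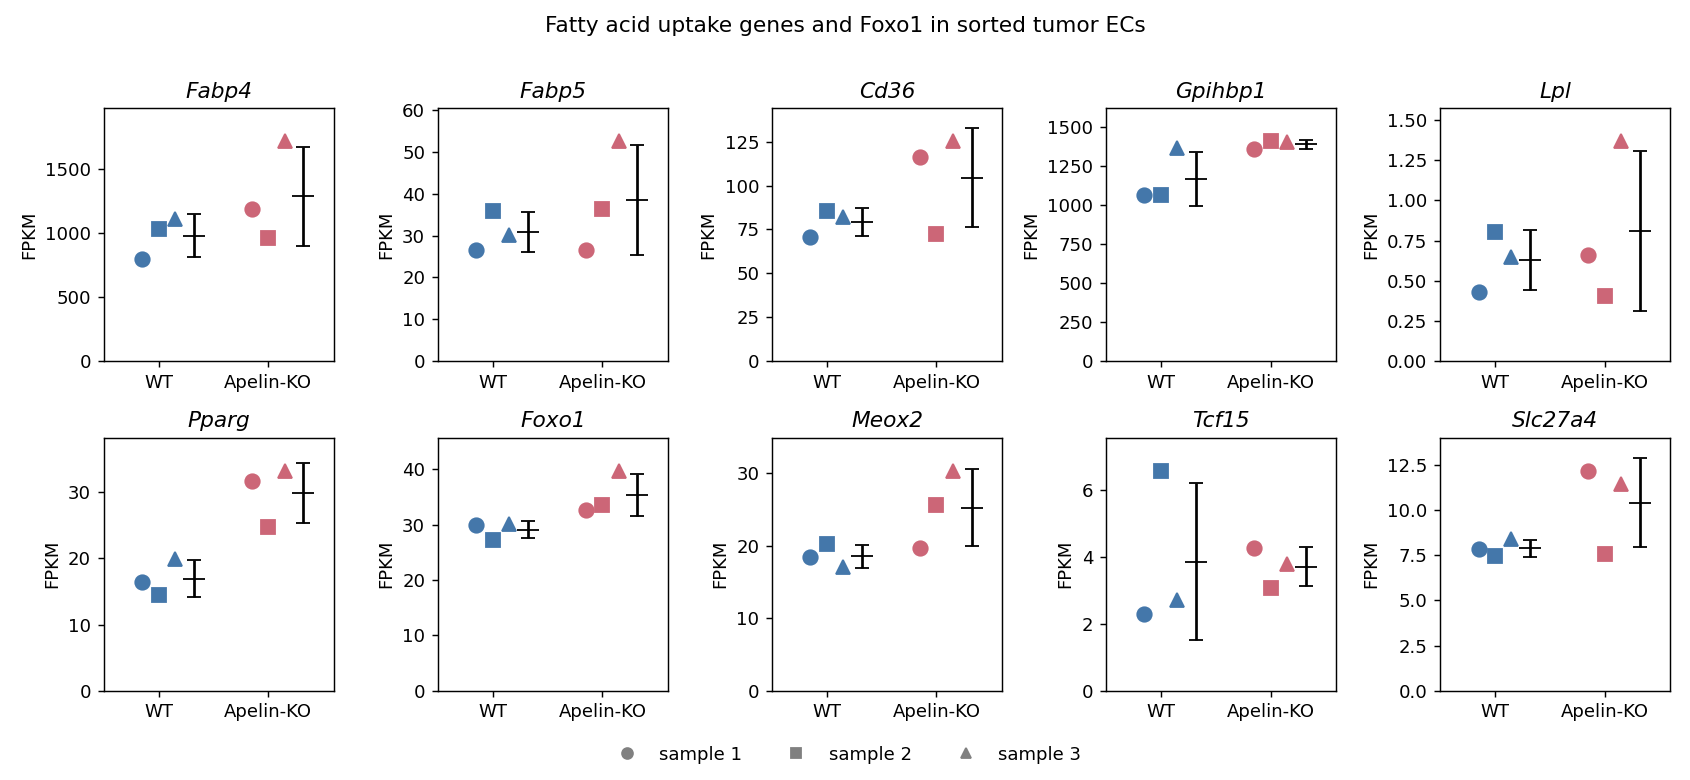
FPKM of the 10 genes in each of the 3 WT (blue) and 3 Apelin-KO (red) samples, with 1 panel a gene, each axis starting at 0, marker shapes for the sample number, and black bars for the mean ± SD (n = 3). The groups do not overlap for Pparg and Foxo1, and Apelin-KO 2 is the lowest Apelin-KO sample for Fabp4, Cd36, Lpl, Pparg, Tcf15 and Slc27a4.

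Levels averaged over the 6 samples ran from 1278 FPKM for Gpihbp1 through 1137 FPKM for Fabp4, 91.9 FPKM for Cd36, 34.7 FPKM for Fabp5, 32.2 FPKM for Foxo1, 23.4 FPKM for Pparg, 21.9 FPKM for Meox2, 9.15 FPKM for Slc27a4 and 3.78 FPKM for Tcf15 to 0.72 FPKM for Lpl. Gpihbp1 and Fabp4 ranked 23 and 28 among all genes by mean FPKM. Their ranges over samples overlapped, and so did those of the neighbours Fabp5 and Foxo1, Foxo1 and Pparg, and Pparg and Meox2. All other neighbours in this order were separated in all 6 samples.

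All 10 genes are protein-coding genes of GRCm38, the assembly also called mm10. Fabp4 lies on chromosome 3 from 10204088 to 10208576 on the minus strand and Fabp5 on the same chromosome from 10012548 to 10016607 on the plus strand. Foxo1 is also on chromosome 3, from 52268336 to 52353221 on the plus strand. Tcf15 and Slc27a4 are on chromosome 2, from 152143561 to 152149097 and from 29802634 to 29817522, both on the plus strand. Cd36 is on chromosome 5 from 17781690 to 17888801 on the minus strand, and Pparg on chromosome 6 from 115360951 to 115490399 on the plus strand. Lpl is on chromosome 8 from 68880491 to 68907448, Meox2 on chromosome 12 from 37108540 to 37179534, and Gpihbp1 on chromosome 15 from 75596628 to 75599481, all on the plus strand. In Fabp5 and Lpl, 1.33% and 1.36% of the 75-base stretches of the longest transcript also occur in transcripts of other genes, and none do in the other 8 genes. Foxo1 overlaps exons of the antisense gene Gm20402, and since the strand setting of the authors' counting was not stated, reads of both may have been counted together.

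Among genes that act on the vessel surface, Gpihbp1, which binds lipoprotein lipase and carries it to the capillary lumen, was 1067, 1063 and 1364 FPKM in WT 1, 2 and 3, and 1359, 1409 and 1405 FPKM in Apelin-KO 1, 2 and 3. WT 3 reached the level of the Apelin-KO samples, so that the groups overlapped by a narrow margin. The means were 1165 ± 173 and 1391 ± 28.1 FPKM (SD, n = 3 each), and the log2 fold change 0.27 (standard error 0.13, 95% confidence interval -0.03 to 0.56, adjusted p = 0.552 from limma). The lipase itself, encoded by Lpl and made mainly by adipocytes and muscle, was near the lower end of detection at 0.433, 0.804 and 0.649 FPKM in WT samples and 0.663, 0.403 and 1.37 FPKM in Apelin-KO samples. By the depth estimate, this is 17.1, 28.1 and 23.1 reads in WT samples, and 24.0, 16.0 and 50.1 reads in Apelin-KO samples. The groups overlapped, the highest value being that of Apelin-KO 3, and Lpl did not enter the test.

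Cd36, the fatty acid translocase of the cell membrane, was 70.5, 85.5 and 81.9 FPKM in WT ECs and 116, 72.2 and 125 FPKM in Apelin-KO ECs. Apelin-KO 1 and 3 lay above all WT samples and Apelin-KO 2 lay among them. The log2 fold change was 0.36 (standard error 0.21, 95% confidence interval -0.15 to 0.87, adjusted p = 0.631 from limma), with 0.60 without Apelin-KO 2 and 0.21 without Apelin-KO 3. Slc27a4, which encodes the fatty acid transport protein FATP4, was 7.83, 7.46 and 8.39 FPKM in WT ECs and 12.2, 7.59 and 11.5 FPKM in Apelin-KO ECs, with the same sample, Apelin-KO 2, among the WT values. Its log2 fold change was 0.34 (standard error 0.17, 95% confidence interval -0.07 to 0.74), with 0.53 without Apelin-KO 2 and 0.22 without Apelin-KO 1. Cd36 and Slc27a4 had a Pearson r of 0.93 over the 6 samples on the log2(FPKM + 1) scale, a description of samples that also share their library and scaling.

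Fabp4, the adipocyte-type fatty acid binding protein that capillary ECs also make in quantity, was 798, 1035 and 1116 FPKM in WT ECs and 1188, 965 and 1720 FPKM in Apelin-KO ECs. Apelin-KO 2 lay below 2 of the WT samples, and Apelin-KO 3 stood above all others. The means were 983 ± 165 and 1291 ± 388 FPKM (SD, n = 3 each), a ratio of 1.31, and the log2 fold change was 0.37 (standard error 0.23, 95% confidence interval -0.18 to 0.91, adjusted p = 0.646 from limma). It was 0.14 without Apelin-KO 3 and 0.55 without Apelin-KO 2. Fabp5, the epidermal-type protein of the same family, was 26.6, 36.0 and 30.1 FPKM in WT ECs and 26.6, 36.3 and 52.6 FPKM in Apelin-KO ECs. Apelin-KO 1 and 2 lay at or near WT values, and the difference between the means came from Apelin-KO 3, without which the log2 fold change was 0.02. Without Apelin-KO 1 it was 0.50. The level of Fabp4 relative to Fabp5, which depends little on the scaling between samples, was 4.94 ± 0.19 in WT ECs and 5.04 ± 0.37 in Apelin-KO ECs as a difference of log2(FPKM + 1) (SD, n = 3 each; two-sided exact permutation test, p = 0.7). Both groups thus overlapped in the proportion of the pair.

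Pparg, the gene of the lipid-activated nuclear receptor PPARγ, had the largest log2 fold change of the 9 genes tested. It was 16.4, 14.5 and 19.98 FPKM in WT ECs and 31.7, 24.8 and 33.2 FPKM in Apelin-KO ECs. Every Apelin-KO sample lay above every WT sample, and the lowest of them was Apelin-KO 2. The means were 17.0 ± 2.79 and 29.9 ± 4.49 FPKM (SD, n = 3 each), a ratio of 1.76. The log2 fold change was 0.78 (standard error 0.16, 95% confidence interval 0.40 to 1.16). The unadjusted p was 0.00179 and the adjusted p 0.501 (limma with Benjamini-Hochberg adjustment), so that the difference did not pass over all genes. When any 1 sample was left out, this fold change stayed between 0.68 and 0.91.

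Upstream sequence was at hand for 5 of the 10 genes (Cd36, Foxo1, Meox2, Pparg and Slc27a4), in RefSeq windows of GRCm38.p6 that run from 250 bases before to 50 bases after an annotated start. It was searched on both strands for AGGTCA, the hexamer repeated in PPAR response elements, and for GTAAACA, a core motif of forkhead factors such as FOXO1. No motif of MEOX2 or TCF15 was searched. AGGTCA was found in 3 of the 7 windows, beside 16.3% of all 32851 windows of this length, and GTAAACA in 0 of the 7, beside 3.65% of all. The 3 stretches with a match are shown because 2 of them precede starts of Pparg, the gene with the largest log2 fold change, and the third precedes Cd36. The 250 bases before each start are given 5′ to 3′ on the strand of the gene, with the match in capitals. Such a match is a description of the letters, and the FPKM do not tell which start of Pparg was in use.
Pparg, chr6:115360894-115361143, plus strand: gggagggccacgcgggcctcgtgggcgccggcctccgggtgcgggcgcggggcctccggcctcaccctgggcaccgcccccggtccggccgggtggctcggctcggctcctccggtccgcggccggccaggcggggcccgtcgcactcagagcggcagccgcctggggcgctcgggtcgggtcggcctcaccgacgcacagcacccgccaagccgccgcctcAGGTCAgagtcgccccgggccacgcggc
Pparg, chr6:115362099-115362348, plus strand: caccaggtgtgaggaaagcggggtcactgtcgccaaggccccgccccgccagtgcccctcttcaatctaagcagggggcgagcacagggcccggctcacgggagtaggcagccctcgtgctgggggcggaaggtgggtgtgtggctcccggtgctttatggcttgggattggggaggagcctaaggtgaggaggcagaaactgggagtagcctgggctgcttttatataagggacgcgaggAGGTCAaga
Cd36, chr5:17835897-17836146, minus strand: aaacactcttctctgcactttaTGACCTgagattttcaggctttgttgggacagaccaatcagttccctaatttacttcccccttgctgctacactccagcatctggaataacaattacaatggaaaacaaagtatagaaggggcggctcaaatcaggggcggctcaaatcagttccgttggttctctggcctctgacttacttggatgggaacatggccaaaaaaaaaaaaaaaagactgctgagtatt

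Counted from the start, the match begins at -28 and at -9 in the Pparg stretches and at -228 in the Cd36 stretch, where it reads TGACCT because it is on the opposite strand.

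Foxo1 was 29.995, 27.3 and 30.02 FPKM in WT ECs and 32.7, 33.6 and 39.7 FPKM in Apelin-KO ECs. The groups did not overlap, though Apelin-KO 1 stood only a little above WT 1 and 3. The means were 29.1 ± 1.59 and 35.3 ± 3.81 FPKM (SD, n = 3 each), a ratio of 1.21, and the log2 fold change 0.27 (standard error 0.11, 95% confidence interval 0.00072 to 0.53, adjusted p = 0.525 from limma). With the samples scaled to an equal level of endothelial markers (below), the log2 fold change was 0.03 and the groups overlapped. These are levels of mRNA, and they say nothing of where the FOXO1 protein was in the cell.

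Of the transcription factor pair, Meox2 was 18.4, 20.2 and 17.1 FPKM in WT ECs and 19.7, 25.6 and 30.4 FPKM in Apelin-KO ECs, with Apelin-KO 1 below WT 2. Its log2 fold change was 0.41 (standard error 0.16, 95% confidence interval 0.02 to 0.80, adjusted p = 0.522 from limma), and 0.27 without Apelin-KO 3. Tcf15, its partner, was 2.30, 6.56 and 2.70 FPKM in WT ECs and 4.26, 3.08 and 3.78 FPKM in Apelin-KO ECs. WT 2 was the highest of all samples, the groups overlapped, and the log2 fold change was 0.05 (standard error 0.31, 95% confidence interval -0.67 to 0.77, adjusted p = 0.975 from limma). Without WT 2 the log2 fold change of Tcf15 was 0.42, without WT 1 it was -0.18, and the ratio of the means was 0.961, opposite in direction to the fold change. By the depth estimate, Tcf15 had 18.1, 45.7 and 19.2 reads in WT samples, and 30.7, 24.5 and 27.6 reads in Apelin-KO samples.

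**Figure D2:**
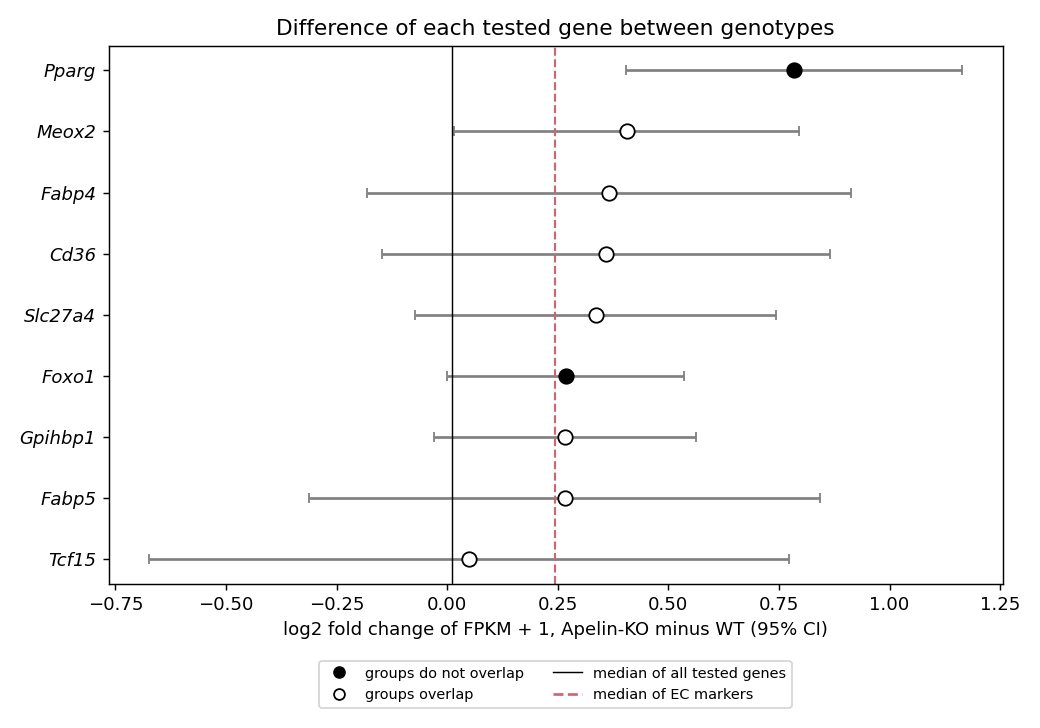
Log2 fold change of FPKM + 1 (Apelin-KO minus WT) of the 9 genes tested, with 95% confidence intervals from limma. Filled points are genes whose groups do not overlap (Pparg and Foxo1), the solid line marks the median over all genes tested (0.01) and the dashed line the median of 15 endothelial markers (0.24), which lies inside the interval of every gene but Pparg.

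Of 15 endothelial markers, 14 had a log2 fold change above 0, with a median of 0.24, and Ecscr was at -0.02. The groups did not overlap for 5, all higher in Apelin-KO samples (Pecam1, Cdh5, Tie1, Sox17 and Vwf, where 7.77% of all genes did so), and overlapped for the other 10. None of the 15 passed at an adjusted p under 0.05, and the same 5 had an unadjusted p under 0.05 (limma), where 9.42% of all genes did. The summed FPKM of the 15 was 4542 to 5392 in WT and 5526 to 5753 in Apelin-KO samples. In bulk samples, a larger share of ECs and more RNA of a gene per EC cannot be told apart. With the samples scaled to an equal level of the endothelial markers, which moved the median over all genes to -0.21, the log2 fold change was 0.55 for Pparg, 0.17 for Meox2, 0.12 for Fabp4, Cd36 and Slc27a4, 0.03 for Foxo1 and Fabp5, 0.02 for Gpihbp1 and -0.15 for Tcf15. Pparg alone of the 9 genes then kept groups without overlap, where 26.5% of all genes did not overlap.

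**Figure D3:**
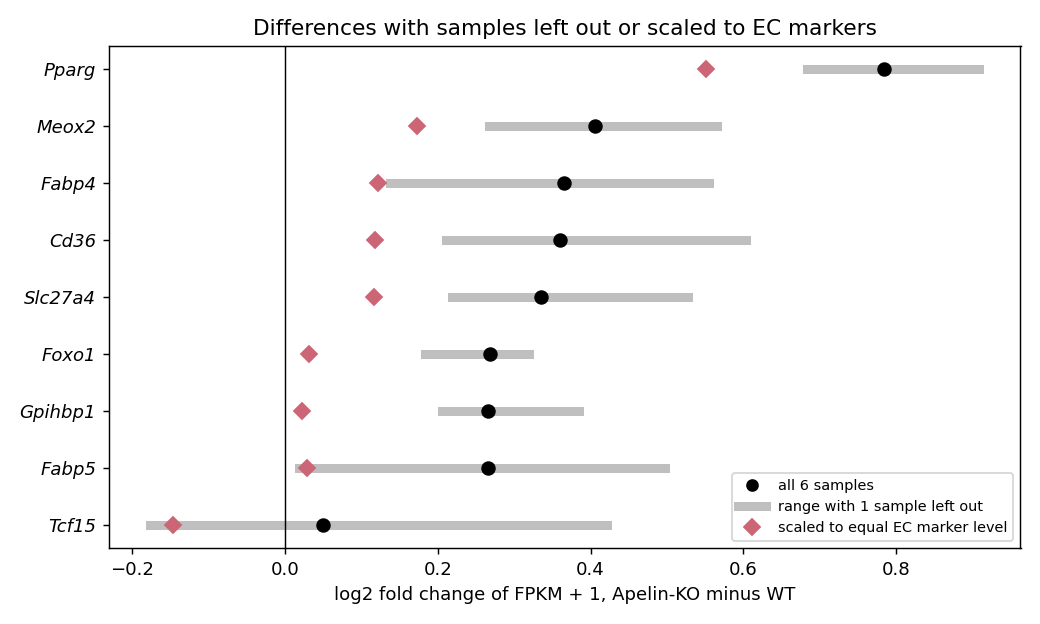
Log2 fold change of FPKM + 1 (Apelin-KO minus WT) of the 9 genes with all 6 samples (black points), with each sample left out in turn (grey bars, lowest to highest value) and with samples scaled to an equal level of endothelial markers (red diamonds). The bar of Pparg runs from 0.68 to 0.91 and its scaled value is 0.55, whereas the bar of Tcf15 crosses 0.

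RNA of other cells that also use these genes was examined by marker lists. Adipocytes express Fabp4, Pparg, Cd36 and Lpl at high levels, and 6 of 10 adipocyte markers, namely Adipoq, Cidec, Lep, Cfd, Pck1 and Adrb3, were listed at 0 in all 6 samples. The highest was Car3 with a mean of 0.20 FPKM, and the summed FPKM of the 10 was 0.02 to 0.967 in WT and 0.08 to 0.178 in Apelin-KO samples, beside 798 FPKM or more of Fabp4. Skeletal muscle markers, led by Mylpf, summed to 0.691 to 1.9 FPKM in WT and 1.06 to 3.08 FPKM in Apelin-KO samples, with Myh4 and Tnnt3 listed at 0 in all. The 8 epithelial tumor cell markers, led by Cldn7, summed to 0.877 to 1.48 FPKM in WT and 0.186 to 0.474 FPKM in Apelin-KO samples, with Cldn3 listed at 0 in all.

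Macrophages, which express Cd36, Fabp5, Lpl and Pparg, did leave a signal in spite of the gate on CD45. The 12 macrophage markers summed to 225 to 858 FPKM in WT and 92.1 to 270 FPKM in Apelin-KO samples, the highest being Lyz2 with a mean of 158 FPKM. All 12 had a log2 fold change below 0, with a median of -1.25, opposite in sign to those of the 9 genes. The 10 hematopoietic markers summed to 137 to 400 FPKM in WT and 72.7 to 162 FPKM in Apelin-KO samples, with Fcer1g highest among them. Fibroblast markers, led by Col1a1, summed to 198 to 344 FPKM in WT and 130 to 204 FPKM in Apelin-KO samples. Pericyte markers, led by Kcnj8, summed to 133 to 174 FPKM in WT and 177 to 202 FPKM in Apelin-KO samples. Kcnj8 and Abcc9, with means of 85.5 and 69.1 FPKM, made up most of these sums, and Acta2 came next with 7.06 FPKM. Of the 5 pericyte markers tested, 4 had a log2 fold change above 0 and 1 below (Cspg4, -0.35). The groups overlapped for each of these 5. Platelet markers, led by Pf4, summed to 8.58 to 10.8 FPKM in WT and 7.11 to 8.92 FPKM in Apelin-KO samples. Lymphatic endothelial markers, led by Flt4, summed to 189 to 432 FPKM in WT and 180 to 290 FPKM in Apelin-KO samples. The part of these cells in the values of the 10 genes was not tested.

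**Figure D4:**
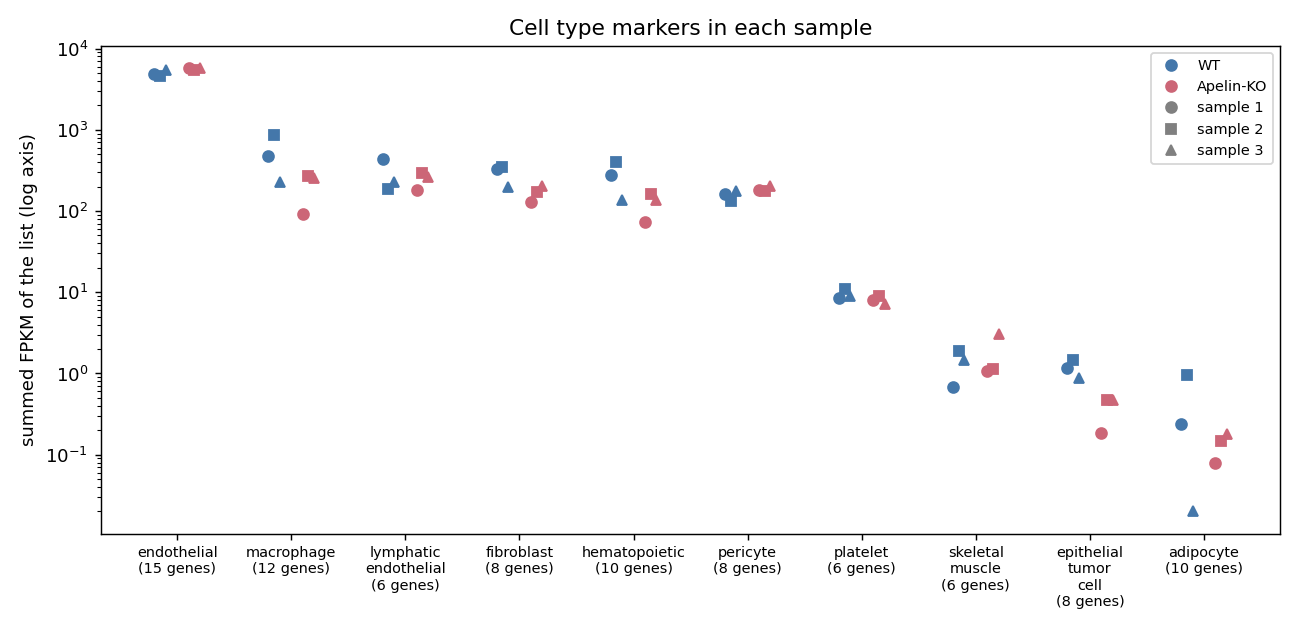
Summed FPKM (log axis) of each list of cell type markers in the 3 WT (blue) and 3 Apelin-KO (red) samples, with marker shapes for the sample number. Endothelial markers sum to 4542 FPKM or more in each sample and adipocyte markers to 0.967 FPKM or less, and macrophage markers reach 858 FPKM in WT 2.

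Other genes of fatty acid handling were taken from a list of 41 genes, of which 34 were tested. The median log2 fold change was 0.08, 23 were above 0 and 11 below, 0 had an adjusted p under 0.05, and 4 higher and 2 lower in Apelin-KO ECs had an unadjusted p under 0.05 (limma). For the same 6 genes the groups did not overlap. Over all genes tested, 9.42% had such a p and 14.4% did not overlap, so that the second count was near that of all genes. Cpt1a, which admits long-chain fatty acids to mitochondrial oxidation, had the largest log2 fold change of the list, with 20.97, 20.09 and 18.99 FPKM in WT ECs and 31.9, 29.2 and 41.6 FPKM in Apelin-KO ECs (log2 fold change 0.73, standard error 0.15, adjusted p = 0.501). Slc25a20, the carnitine carrier of the next step of that route, was 30.7 ± 0.954 FPKM in WT ECs and 39.4 ± 2.22 FPKM in Apelin-KO ECs (SD, n = 3 each). The lipase gene Pnpla2, which starts the release of fatty acids from lipid droplets, was 32.2 ± 2.56 and 43.3 ± 7.61 FPKM, and Scarb1, the high-density lipoprotein receptor, 226 ± 31.2 and 293 ± 23.7 FPKM. Of this list, Cpt2, Acadvl, Acadm, Hadha and Hadhb, which act later in mitochondrial oxidation, had log2 fold changes between 0.00 and 0.08. Later steps were not all that flat. Acadl and Acaa2, which are outside the list, had log2 fold changes of 0.36 and 0.42 (adjusted p = 0.515 and 0.525 from limma).

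Angptl4, an inhibitor of lipoprotein lipase, was 178, 123 and 133 FPKM in WT ECs and 160, 199 and 363 FPKM in Apelin-KO ECs, and Plin2, a lipid droplet coat protein, was 64.2, 72.6 and 55.9 FPKM in WT ECs and 83.5, 72.5 and 173 FPKM in Apelin-KO ECs. For both, Apelin-KO 3 stood far above the other samples and the groups overlapped. In the other direction, Acsl3, an acyl-CoA synthetase, was 8.78 ± 0.884 FPKM in WT ECs and 6.28 ± 0.80 FPKM in Apelin-KO ECs (SD, n = 3 each, log2 fold change -0.43, standard error 0.12, adjusted p = 0.501 from limma). The lipoprotein receptor Lrp1 and Slc27a1, the gene of the transport protein FATP1, had log2 fold changes of -0.58 and -0.49 with groups that overlapped. Ppara, the PPAR of fatty acid oxidation in liver, was listed at 0 in all 6 samples, and Ppard was 0.515 to 0.908 FPKM, which leaves Pparg, at 14.5 FPKM or more, the most abundant of the 3 PPAR genes in each sample.

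Genes around FOXO1 were taken from a list of 44 genes that holds its paralogs, the kinases that act on it and its known targets. Of these, 38 were tested, with a median log2 fold change of 0.09, 27 above 0 and 11 below, and 0 with an adjusted p under 0.05 (limma). At an unadjusted p under 0.05, 1 gene was higher and 1 lower in Apelin-KO ECs, and among the genes tested the groups did not overlap for 3 genes higher and 2 genes lower, which is no larger a share than the 9.42% and 14.4% over all genes. Foxo1 was the main FOXO gene of these cells, since Foxo3, Foxo4 and Foxo6 were at 0.694 FPKM or less in each sample. Igf1r, a growth factor receptor, was 3.41 ± 0.213 FPKM in WT ECs and 5.72 ± 1.66 FPKM in Apelin-KO ECs (SD, n = 3 each, log2 fold change 0.58). Klf2, a flow-responsive factor, and Nos3, the endothelial nitric oxide synthase, also did not overlap, with log2 fold changes of 0.27 and 0.18. Cdkn1a, an inhibitor of the cell cycle, and Klf4 had log2 fold changes of 0.30 and 0.29 with groups that overlapped.

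The cyclin genes Ccnd2 and Ccnd1, whose products drive entry into the cell cycle, had the lowest log2 fold changes of that list, -0.68 and -0.34. Ccnd1 was 25.99, 26.9 and 29.8 FPKM in WT ECs and 25.96, 24.9 and 15.5 FPKM in Apelin-KO ECs, so that the groups were apart only by the small gap between WT 1 and Apelin-KO 1. Ccnd2 was 12.1, 8.59 and 6.12 FPKM in WT ECs and 4.10, 5.59 and 5.44 FPKM in Apelin-KO ECs, and Gadd45b followed with a log2 fold change of -0.25. Pdk4, a kinase that turns cells from glucose to fatty acid oxidation and a known target of both FOXO1 and PPARs, was below the level for testing, as were Foxo3, Foxo4, Foxo6, Irs1 and Irs2. Pdk4 was 0.422, 0.476 and 0.401 FPKM in WT ECs and 1.21, 0.716 and 1.43 FPKM in Apelin-KO ECs, without overlap, and it is named after its values were seen. Angpt2, a FOXO1 target of ECs, had a log2 fold change of 0.06. The kinase genes Akt1 and Akt2, whose products keep FOXO1 out of the nucleus, had log2 fold changes of 0.16 and -0.17. Tek and Kdr of this list also stand among the endothelial markers.

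**Figure D5:**
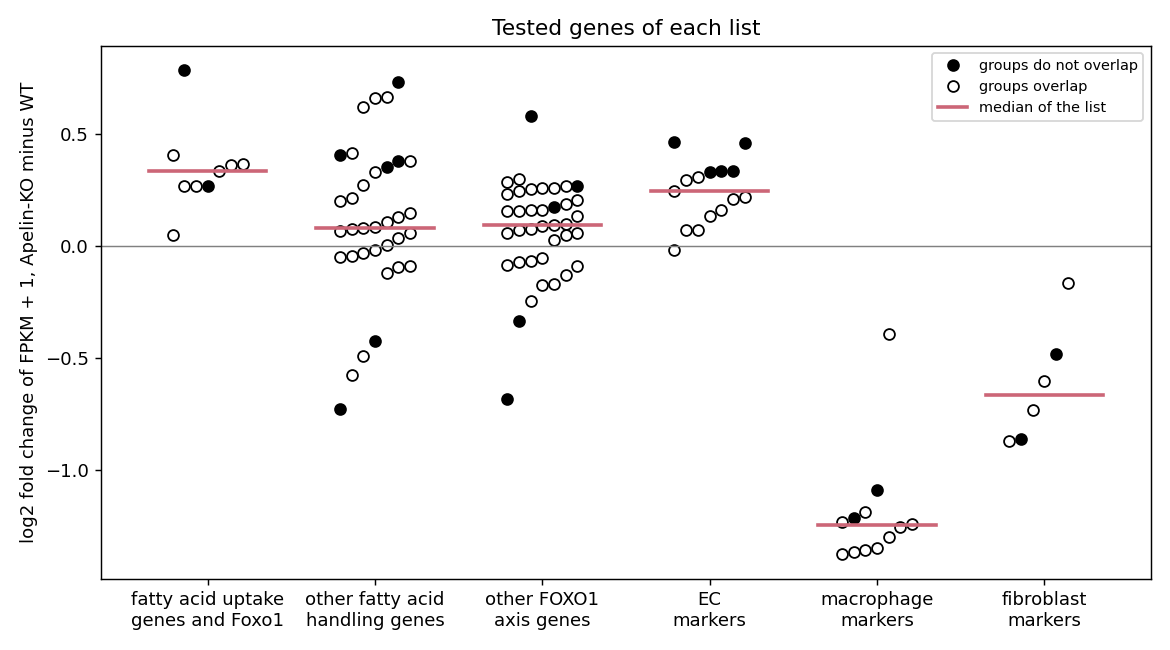
Log2 fold change of FPKM + 1 (Apelin-KO minus WT) of the tested genes of each list, with filled points for genes whose groups do not overlap and red lines for the medians. The medians are 0.34 for the fatty acid uptake genes and Foxo1, 0.08 for other fatty acid handling genes, 0.09 for other FOXO1 axis genes, 0.24 for endothelial markers, -1.25 for macrophage markers and -0.67 for fibroblast markers.

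Genes with a similar pattern over the 6 samples were sought among 5894 other genes averaging 10 FPKM or more, as a description without a test. Tmod3, Sbf1 and Smpd1 were nearest to Fabp4, with a Pearson r of 0.978 to 0.988 on the log2(FPKM + 1) scale. Maf1, Ace and Fam216a were nearest to Cd36 with an r of 0.989 to 0.996, and Map7d1, Ing1 and Ralgds were nearest to Foxo1 with an r of 0.991 to 0.997. Among the 10 genes, Foxo1 and Pparg had an r of 0.88 and Fabp4 and Cd36 an r of 0.89.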

How the data were processed

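The authors prepared stranded mRNA libraries from sorted CD31+ CD45- cells, sequenced 75-base single reads and mapped them to mm10. The submitters' processing notes name TopHat2 2.1.1, Bowtie2 2.2.4, SAMtools 1.0 and Cufflinks 2.2.1, and the methods name other versions of the first 3. The deposited values are FPKM from Cufflinks, 1 per gene symbol and sample. The annotation, strand setting and filters were not given in the sources used here.

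Values were compared as log2(FPKM + 1) with limma 3.58.1 in R 4.3.3 (two-sided moderated test, no block, Benjamini-Hochberg adjustment over 10964 genes), where the study's statistics were not moderated. Tested on simulated data of these 10964 genes, it called 94.8% of 200 genes changed 4-fold. Smaller changes were not simulated. Among the fatty acid uptake genes and Foxo1, the largest ratio of Apelin-KO to WT means was 1.76 (Pparg). The simulation therefore does not tell how often differences of their size would be called. The labels do not say that replicates were separate mice, so p-values measure the spread between these samples. Depth was estimated from 3742 genes with 1 annotated transcript, assuming 200-base fragments. The depth taken was that with the most low FPKM at whole reads to within 0.1. This share was 67.0% to 71.7%, so no count test was run. By chance it is 20% at a fixed depth, and more at a depth chosen in this way. Positions come from GENCODE M21 (GRCm38). Alternatives were other pseudocounts, filters, variance models and scalings, a replicate block and leaving out each sample.

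The 10 genes and all lists were chosen with earlier results of these data known. Named were the 10 genes, Apln, list genes with an adjusted p under 0.05 (0 genes) or with the 3 largest log2 fold changes in either direction, leading markers and those listed at 0, and the 3 most similar genes. Other list genes, and Aplnr, Acadl and Acaa2 from outside the lists, were added after their values were seen. Some list genes that enter the counts are not reported here by name.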

Additional observations from a re-analysis of the deposited data

How the results depend on the processing

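No gene of the 10 had an adjusted p under 0.05 under any alternative, and the lowest adjusted p of a gene among them was 0.123, without WT 3. The number of all genes with an adjusted p under 0.05 was 1 in the comparison as reported. It was 2 when the pseudocount was 0.01, when low values were kept, with a mean of at least 5 FPKM and with an intensity trend, and 0 with each gene's own variance. With 1 sample left out it ranged from 0 (without WT 2 or Apelin-KO 2) to 3 (without WT 1). The number of the 10 genes whose groups did not overlap was 2, ranged from 2 to 5 with 1 sample left out, where smaller groups overlap less often over all genes too, and was 1 with the endothelial marker scaling. Of the 9 genes, 8 kept a log2 fold change above 0 under every alternative. The exception was Tcf15, at -0.15 with the endothelial marker scaling and between -0.18 and 0.42 with 1 sample left out. The difference in the ratio of Fabp4 to Fabp5, 0.10 as a log2 value, ranged from -0.093 (without Apelin-KO 1) to 0.27. The causes of these shifts were not tested.

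The sources do not say whether equal sample numbers mark pairs, and 3 samples a group cannot settle it. Deviations from the group means had correlations of -0.14, 0.21 and -0.02 between samples numbered 1, 2 and 3. With the replicate number as a block, 1 gene of all and 0 of the 10 had an adjusted p under 0.05, and the paired difference in the ratio was 0.10 (exact sign-flip test, p = 1). Precision is limited by 3 samples a group, and for Lpl and Tcf15 also by their few reads.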
